A study of Mus musculus with 2 samples.

Results

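The genes described are 10 parts of the cell cycle engine: the D-type cyclins Ccnd1, Ccnd2 and Ccnd3, the later cyclins Ccne1, Ccna2 and Ccnb1, the cyclin-dependent kinases Cdk1, Cdk4 and Cdk6, and the kinase inhibitor Cdkn1b. They were taken by gene symbol, and all 10 were found among the 27998 genes listed in each library. They were measured in 2 droplet single-cell RNA libraries (10x Genomics) from AB2.2, an established mouse embryonic stem cell line, at day 4 of differentiation toward mesendoderm, the shared precursor of mesoderm and endoderm. The PHD2 knockout library held 6927 cells after filtering and the wild type library held 8515. Egln1 encodes PHD2, a prolyl hydroxylase that needs oxygen to mark hypoxia-inducible factors for breakdown. The sources used here do not give the altered part of that gene or the number of clones and cultures. With 1 library per group there is no replicate check and no test, so each interval below is a 95% interval for counting error only.

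D-type cyclins bind Cdk4 or Cdk6 and phosphorylate the retinoblastoma proteins, which releases E2F factors and opens the way from G1 into S phase. Cyclin E continues that step, cyclin A acts through S phase and G2, and cyclin B with Cdk1 drives mitosis, while Cdkn1b (p27) binds and restrains cyclin and kinase pairs. Mouse embryonic stem cells are known for a short G1 phase and low D-type cyclin levels, and G1 lengthens as they leave pluripotency. RNA levels do not report the activity of these proteins, which is largely set by their breakdown and phosphorylation.

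In the mm10 build (GENCODE M21) Ccnd2 (ENSMUSG00000000184) lies on chromosome 6 from 127125162 to 127152193 on the minus strand, and Cdkn1b (ENSMUSG00000003031) on the same chromosome from 134920401 to 134925513 on the plus strand. Cdk1 (ENSMUSG00000019942) lies on chromosome 10 from 69335146 to 69352938, minus, and Cdk4 (ENSMUSG00000006728) on that chromosome from 127063534 to 127067920, plus. Ccnd1 (ENSMUSG00000070348) spans 144929931 to 144939925 and Ccne1 (ENSMUSG00000002068) 38097984 to 38107534, both on the minus strand of chromosome 7. Ccnd3 (ENSMUSG00000034165) spans 47505051 to 47599691 of chromosome 17, plus, Ccna2 (ENSMUSG00000027715) 36564865 to 36572150 of chromosome 3, minus, Ccnb1 (ENSMUSG00000041431) 100778650 to 100786570 of chromosome 13, minus, and Cdk6 (ENSMUSG00000040274) 3341485 to 3531008 of chromosome 5, plus.

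Levels are unique molecular identifiers (UMIs, counts of captured transcripts) summed over the kept cells of a group and scaled to the group's total and given as CPM, the usual unit of scaled counts. A call, higher or lower, needed a 1.5-fold difference and 5 CPM or more in the group with more. Egln1 was at 13.6 CPM (13.1 to 14.2) in the knockout library, against 18.2 CPM (17.6 to 18.8) in wild type; with the altered part unknown, this does not check the labels. All 8 pluripotency markers reached 5 CPM in both libraries, and 10 of 10 streak and mesoderm markers did in the knockout, against 4 of 10 in wild type. Their summed level was 932 CPM in knockout and 72.4 CPM in wild type cells, and fibroblast markers summed to 3.66 CPM and 2.63 CPM and endoderm markers to 2.33 CPM and 1.91 CPM. The 7 blood and endothelium markers summed to 62.2 CPM in knockout and 13.3 CPM in wild type cells, mostly Etv2 (50.1 CPM and 11.2 CPM). The kept cells of the libraries shared 16 barcodes. Cells with a low share of chromosome 8 UMIs made up 45.6% of the knockout and 16.2% of the wild type cells.

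Between the libraries, Ccnd2 alone among the 10 genes passed 1.5-fold. It was at 104 CPM in knockout cells (103 to 106), against 35.2 CPM in wild type cells (34.4 to 36.1), a ratio of 2.95 (2.87 to 3.04). Of all 8540 genes tested 11.8% were called higher and 2.35% lower, and Ccnd2 stood at percentile 98.7 of their log2 ratios. No member was called lower. With median-of-ratios scaling, which moved the median log2 ratio of all genes from 0.16 to -0.07 and the calls to 5.48% higher and 6.73% lower, the same counts held and the log2 ratio of Ccnd2 was 1.29, against 1.54 with scaling to the total.

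**Figure D1:**
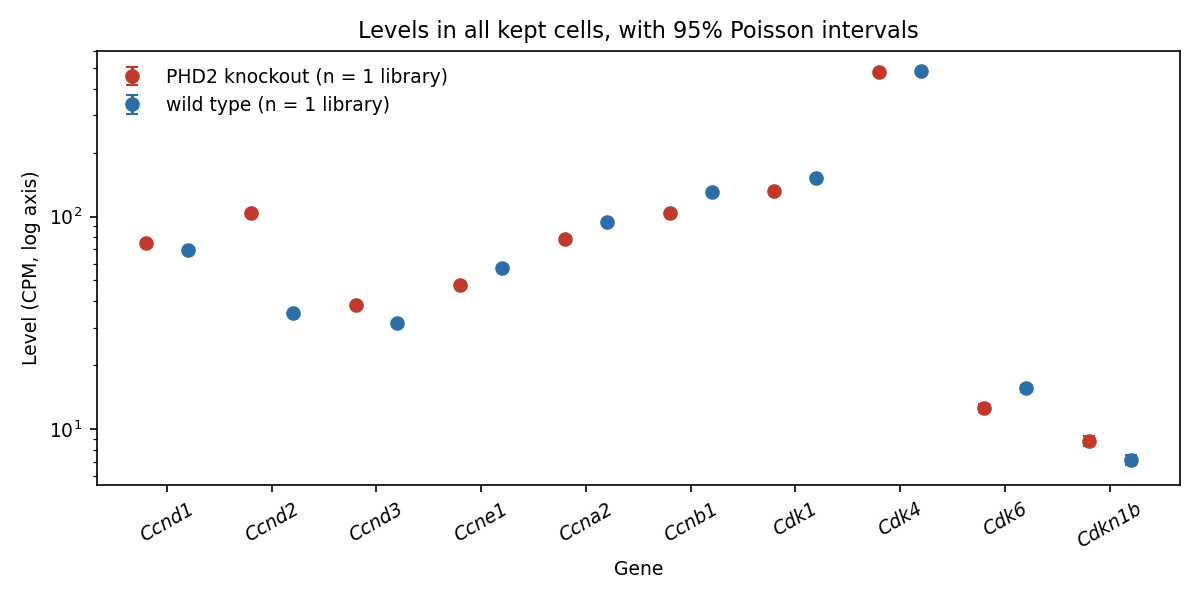
Level of each of the 10 genes (CPM, log axis) in the PHD2 knockout library (red, left of each pair) and the wild type library (blue), 1 library each; bars are 95% Poisson intervals and are mostly smaller than the points. Ccnd2 stands apart, at 104 CPM in knockout and 35.2 CPM in wild type cells, and the other pairs lie close together.

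The other D-type cyclins differed less. Ccnd1, the cyclin D best known as a growth factor and Wnt response gene, was at 74.8 CPM in knockout and 69.4 CPM in wild type cells (ratio 1.08, 1.05 to 1.10). Ccnd3 was at 38.2 CPM in knockout and 31.5 CPM in wild type cells (1.21, 1.17 to 1.25). Most genes were slightly higher in the knockout, so these ratios sit at percentiles 42.9 and 64.3 of all genes. The direction of Ccnd1 depended on the cells and the scaling: its log2 ratio was -0.14 with median-of-ratios scaling, and its ratio was 1.25 among cells with a low chromosome 8 share but 0.966 among those with a high share.

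Ccnd2 was the D-type cyclin whose share of the family's UMIs differed most. It gave 48.0% of cyclin D UMIs in knockout cells (47.4% to 48.5%), against 25.9% in wild type cells (25.4% to 26.4%). Ccnd1 gave 34.4% in knockout and 51.0% in wild type cells, and Ccnd3 gave 17.6% and 23.2%. The summed level of the family was 217 CPM in knockout and 136 CPM in wild type cells. These shares are compared between groups of cells and not between the genes, whose transcripts may be captured with unequal efficiency.

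**Figure D2:**
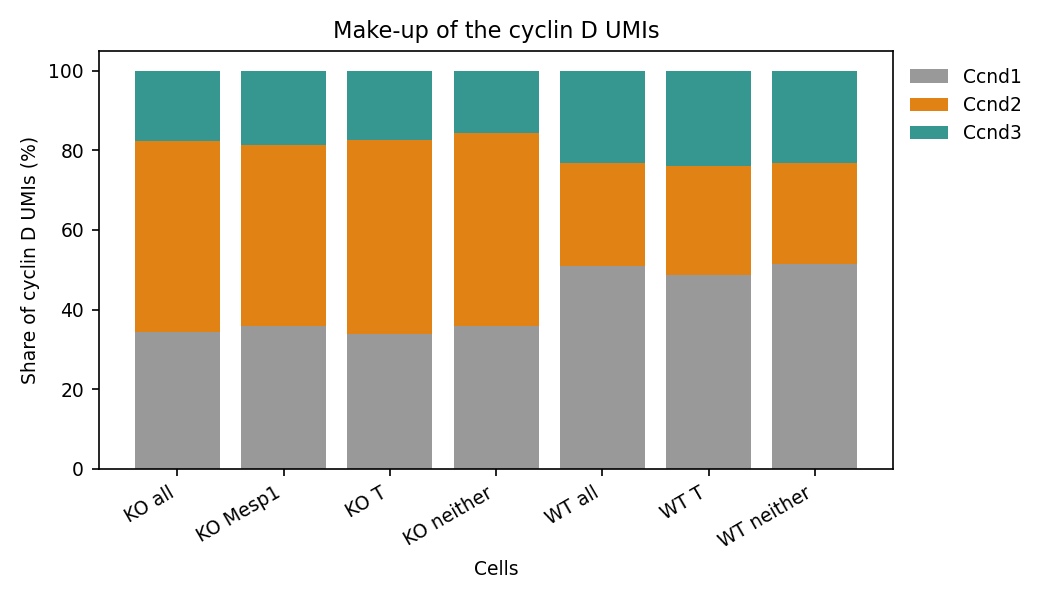
Share of cyclin D UMIs (%) that came from Ccnd1, Ccnd2 and Ccnd3 in PHD2 knockout (KO) and wild type (WT) cells, 1 library each, for all kept cells and by state; T stands for cells with a T UMI and no Mesp1 UMI, and the wild type library had too few Mesp1 cells to plot. Ccnd2 gives 45.4% to 48.9% in every knockout group and 25.3% to 27.4% in every wild type group.

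The difference in Ccnd2 was seen per cell as well. For shares of cells, each cell was thinned to 14000 UMIs, which 6281 knockout and 7738 wild type cells reached. At that depth 60.8% of knockout cells had a Ccnd2 UMI (59.6% to 62.0%), against 32.5% of wild type cells (31.5% to 33.6%), and without thinning the shares were 69.7% and 43.4%. Cells with a Ccnd2 UMI held a mean of 2.43 in the knockout and 1.54 in wild type, and the variance of the thinned counts was 2.44 times their mean in the knockout and 1.60 times in wild type. No cell type here is known to lack D-type cyclins, so free RNA cannot be measured on them. Mesp1 UMIs were found in 0.452% of thinned wild type cells. At 0.402 CPM in that library, Mesp1 gives no floor for more abundant genes. UMIs of all 3 D-type cyclins were found together in 15.9% of knockout and 7.12% of wild type cells, and UMIs of none in 12.4% and 19.0%.

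Cdk4, the partner of the D-type cyclins, was nearly level, at 479 CPM in knockout and 484 CPM in wild type cells (ratio 0.990, 0.980 to 0.999), with a UMI in 99.8% of thinned cells of both libraries. Cdk6, the alternative partner, was at 12.5 CPM in knockout and 15.5 CPM in wild type cells (0.807, 0.762 to 0.854). Cdk6 also varied with the chromosome 8 share: in the knockout it was at 15.1 CPM in cells of low share and 10.3 CPM in cells of high share, and in wild type at 18.3 CPM and 15.0 CPM. Cdk6 lies on chromosome 5 and no member lies on chromosome 8. Cdkn1b was at 8.79 CPM in knockout and 7.13 CPM in wild type cells (1.23, 1.14 to 1.33), with a UMI in 11.4% and 9.72% of thinned cells.

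The later cyclins and Cdk1 were all at lower levels in the knockout library, each within 1.5-fold. Ccne1 was at 47.8 CPM in knockout and 57.2 CPM in wild type cells (0.836, 0.812 to 0.861), and Ccna2 at 78.4 CPM and 94.2 CPM (0.833, 0.814 to 0.852). Ccnb1 was at 104 CPM in knockout and 131 CPM in wild type cells (0.795, 0.779 to 0.811), and Cdk1 at 132 CPM and 152 CPM (0.865, 0.85 to 0.88). Their log2 ratios lay between percentiles 6.25 and 11.7 of all genes.

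Cells were grouped by 2 gene lists that hold none of the 10 genes, 42 S phase genes and 51 G2/M genes. The UMIs of each list were summed, so abundant genes weigh most. In the G2/M list Hmgb2 was at 2120 CPM in knockout and 2977 CPM in wild type cells, and Cks1b at 472 and 685 CPM. Top2a, at 238 and 210 CPM, and Cenpf, at 155 and 128 CPM, went the other way. The part of such genes in the shares of cells below was not tested. After thinning, cells with over 121 UMIs of the G2/M list were called G2/M-list high, the rest with over 45 UMIs of the S list were called S-list high, and the others low for both. These are ranges of RNA and not phases, and 17.4% of knockout and 27.7% of wild type cells lay within 10% of the G2/M limit. G2/M-list high cells made up 26.1% of the knockout (25.0% to 27.2%) and 38.8% of wild type (37.7% to 39.9%), S-list high cells 34.1% and 32.9%, and cells low for both 39.8% and 28.4%.

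Ccnb1, Cdk1, Ccna2 and Cdkn1b were called higher in G2/M-list high cells than in cells low for both, in each library. In the knockout Ccnb1 was at 183 CPM in G2/M-list high cells, against 73.6 CPM in cells low for both, and Cdk1 at 239 CPM against 86.9 CPM. In wild type Ccnb1 was at 184 CPM against 97.3 CPM and Cdk1 at 219 CPM against 117 CPM. Ccna2 differed by 1.91-fold in the knockout and 1.56-fold in wild type, and Cdkn1b by 1.81-fold and 1.84-fold. Of all genes 2.83% in the knockout and 3.59% in wild type were called higher in this contrast. In the other direction 1.23% of all genes in the knockout and 0.639% in wild type were called.

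The promoters of the 3 of these genes with an entry in the RefSeq promoter table (GRCm38.p6) are printed here because the genes were called together in both libraries, with that of Ccne1 beside them as a gene of the other pattern. Each shows the 250 bases before the start in that table, 5′ to 3′ on the gene's strand. The GENCODE spans given above reach into the windows of Cdk1, Ccnb1 and Ccne1, so the starts of the 2 sources differ there. Capitals mark matches on either strand to the CCAAT box (CCAAT), the CHR element (TTTGAA) and the E2F motif (TTTGGCGC, TTTGCCGC, TTTCGCGC or TTTCCCGC), which do not overlap each other here.
Cdk1, chr10:69352913-69353162, minus strand: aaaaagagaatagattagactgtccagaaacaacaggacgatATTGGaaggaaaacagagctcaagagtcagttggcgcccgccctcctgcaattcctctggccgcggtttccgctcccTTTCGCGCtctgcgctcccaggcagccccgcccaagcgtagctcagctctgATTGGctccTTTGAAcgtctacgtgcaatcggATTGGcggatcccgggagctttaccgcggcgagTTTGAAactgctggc
Ccnb1, chr13:100786487-100786736, minus strand: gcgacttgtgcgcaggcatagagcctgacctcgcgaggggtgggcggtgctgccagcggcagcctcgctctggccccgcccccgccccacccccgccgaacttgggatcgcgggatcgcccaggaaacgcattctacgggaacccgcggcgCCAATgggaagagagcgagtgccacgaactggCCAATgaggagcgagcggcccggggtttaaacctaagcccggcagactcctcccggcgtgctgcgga
Cdkn1b, chr6:134920151-134920400, plus strand: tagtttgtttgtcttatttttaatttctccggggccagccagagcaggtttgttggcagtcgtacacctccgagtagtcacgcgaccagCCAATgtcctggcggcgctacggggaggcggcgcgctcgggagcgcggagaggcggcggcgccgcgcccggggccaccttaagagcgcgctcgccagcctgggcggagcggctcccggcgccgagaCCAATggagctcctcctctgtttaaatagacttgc
Ccne1, chr7:38107491-38107740, minus strand: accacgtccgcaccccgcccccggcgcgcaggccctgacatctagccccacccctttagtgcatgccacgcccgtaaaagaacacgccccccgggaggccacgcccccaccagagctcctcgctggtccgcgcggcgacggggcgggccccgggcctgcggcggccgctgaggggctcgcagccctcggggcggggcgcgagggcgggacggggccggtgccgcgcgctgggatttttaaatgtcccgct

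The Cdk1 window held 3 matches to CCAAT, 2 to the CHR element and 1 to the E2F motif. The windows of Ccnb1 and Cdkn1b held 2 CCAAT matches each, and the Ccne1 window held no match to any of the 3 motifs. Of the windows not printed, 1 of Ccnd3 held a CCAAT match, and those of Cdk4 and Cdk6 held no match. Ccnd3 was not called between G2/M-list high cells and cells low for both. Among 32851 mouse promoters of the same length 33.8% held CCAAT, 16.0% the CHR element and 1.86% the E2F motif. CCAAT boxes are known as sites of the factor NF-Y, which many G2/M genes share, but a match in a window is no evidence of binding in these cells. Of the 10 genes 7 matched an entry; Ccnd1, Ccnd2 and Ccna2 were the others.

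Ccne1, the cyclin of the G1 to S step, was higher in the S-list high cells. It was at 76.4 CPM in S-list high and 37.6 CPM in low cells of the knockout (2.03-fold), and at 83.7 CPM and 47.4 CPM in those of wild type (1.77-fold); 1.57% of all genes in the knockout and 2.25% in wild type were called higher there, and 1.22% and 0.918% lower. It was the only member called in that contrast in either library. Cdk4 differed little between ranges: its ratios to the cells low for both lay between 0.981 and 1.03 in both libraries.

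Ccnd2 ran the other way. In the knockout it was at 65.2 CPM in G2/M-list high cells, 100.3 CPM in S-list high cells and 134 CPM in cells low for both, and was called lower in the first of these (0.487, 0.466 to 0.509), as 1.23% of all genes were. In wild type the levels were 28.9, 39.6 and 38.0 CPM, a G2/M-list ratio of 0.760 (0.716 to 0.806). Knockout over wild type, Ccnd2 was 2.26-fold higher among G2/M-list high cells, 2.53-fold among S-list high cells and 3.52-fold among cells low for both, and it was the one member called in each range. Of all genes 12.6%, 11.2% and 18.8% were called higher and 2.84%, 2.23% and 2.62% lower in these 3 comparisons. The ranges were not matched between the libraries. Cells low for both had a median of 72 G2/M-list UMIs in the knockout and 94 in wild type. The medians were 84 and 98 for S-list high cells and 143 in each library for G2/M-list high cells. The part of this difference in the ratio of 3.52 was not tested.

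A finer division into 10 bins of G2/M-list UMIs, chosen after the data were seen, set the libraries side by side between the same limits. The lowest bin (up to 54 UMIs) held 17.8% of knockout cells (16.8% to 18.7%), against 3.84% of wild type cells (3.42% to 4.29%). Cells of the lowest bin were not alike in the libraries. It began at 10 UMIs in knockout and 18 in wild type cells, with medians of 34 and 28 S-list UMIs. A low chromosome 8 share was found in 52.9% and 16.2% of its cells. Mki67, a proliferation marker of the G2/M list, was at 7.84 CPM in knockout and 4.04 CPM in wild type cells of the lowest bin. In the highest bin it was at 140 CPM and 101 CPM, and as a member of that list it took part in the binning. In the lowest bin Ccnd2 was at 207 CPM in knockout and 92.5 CPM in wild type cells, and in the highest bin at 60 CPM and 31.5 CPM. Cdk1 was at 29.4 CPM in knockout and 30.4 CPM in wild type cells of the lowest bin and at 287 CPM and 264 CPM in the highest, and Ccnb1 at 23.9 CPM and 30.2 CPM, then 216 CPM and 223 CPM.

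Weighting the 10 bins equally left Ccnd2 with a log2 ratio of 1.19 and brought Ccnb1 to -0.03, Ccna2 to -0.02 and Cdk1 to 0.10, so the direction of Cdk1 turned. These means average over bins of both directions. Ccnb1 was at lower levels in the knockout in the 5 lowest bins and in bins 9 and 10, in bin 3 beyond the intervals (67.9 CPM in knockout and 79.5 CPM in wild type cells), and at higher levels in bins 6 to 8. Cdk1 was at higher levels in the knockout in bins 4 to 10. Ccne1 was at -0.31, and Cdkn1b was at 0.45. The depth of the cells moved with the bins: the lowest bin had a median of 19217 UMIs per cell in the knockout and 17703 in wild type, and the highest 26666 and 25662. The part of depth in these levels was not tested.

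**Figure D3:**
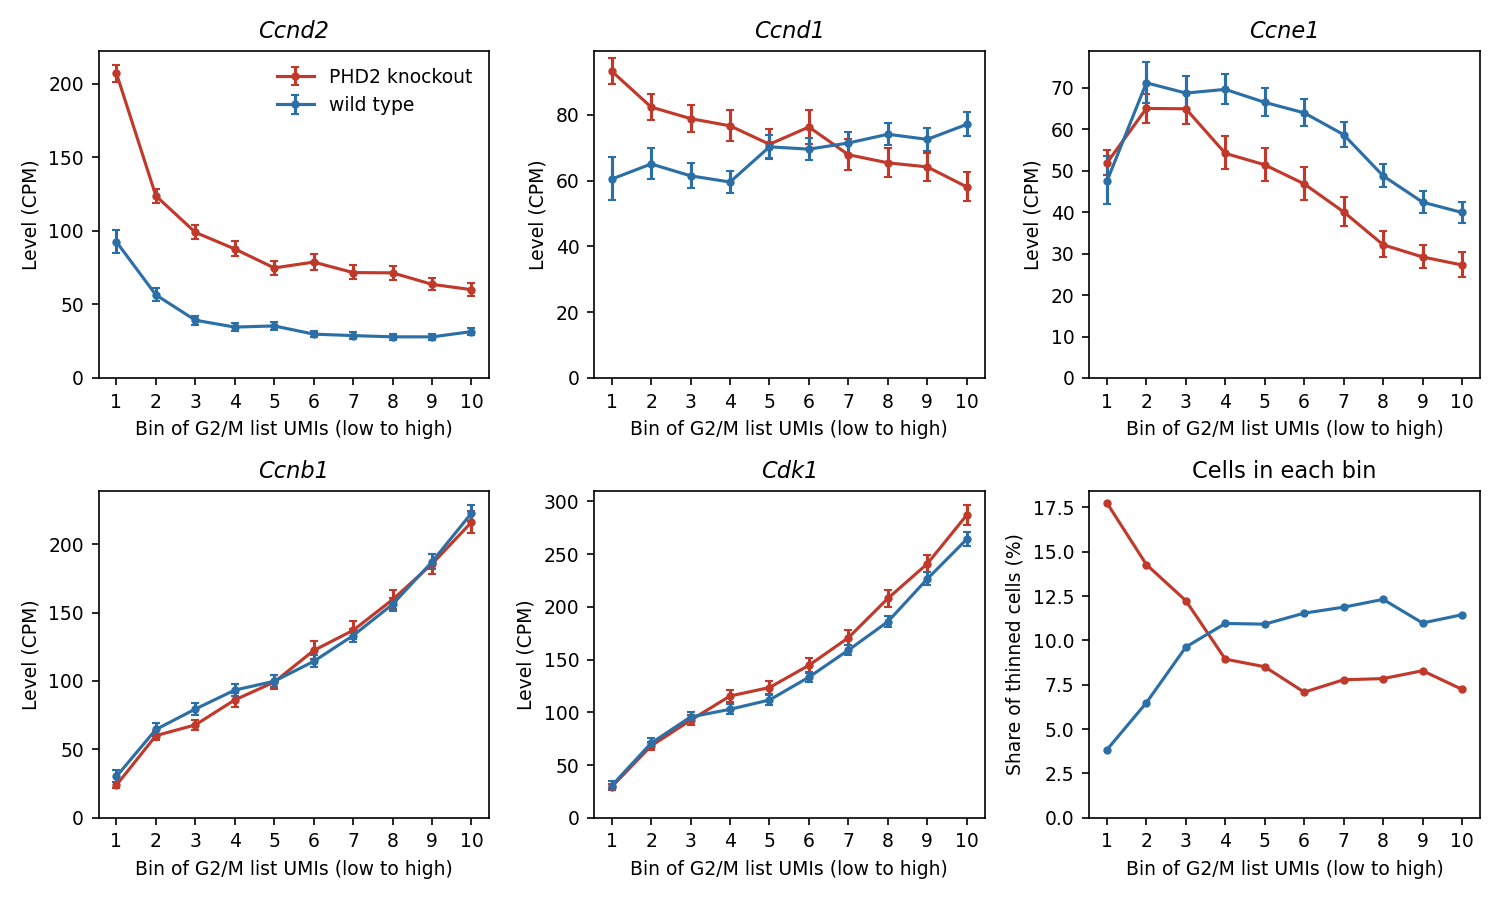
Levels (CPM, with 95% Poisson intervals) of Ccnd2, Ccnd1, Ccne1, Ccnb1 and Cdk1 over 10 bins of G2/M-list UMIs, from low to high, in PHD2 knockout (red) and wild type (blue) cells, and the share of each library's thinned cells per bin (%). Ccnb1 lies close in the libraries in most bins, and Cdk1 is higher in the knockout in bins 4 to 10. Ccnd2 is higher in the knockout in every bin, and the lowest bin holds 17.8% of knockout and 3.84% of wild type cells.

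The low G2/M-list cells were found in every state. The lowest bin held 15.9% of knockout cells with Mesp1 (14.4% to 17.6%), 17.9% of those with T alone (16.7% to 19.3%) and 21.7% of those with neither (18.9% to 24.7%), against 3.77% of wild type cells with neither. It held 20.3% of knockout cells with a low and 15.5% with a high chromosome 8 share, and 3.74% and 3.86% of such wild type cells.

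The second question was whether these genes differ with the state of the cell. T (Brachyury) marks the primitive streak and Mesp1 the earliest mesoderm, and a cell was assigned by at least 1 UMI after thinning. In the knockout 2060 cells had Mesp1, 3418 had T without Mesp1 and 803 had neither, and in wild type 35, 514 and 7189 did. The states also differed in other genes of the streak and of pluripotency. Mixl1, a streak gene, was at 140 CPM in knockout Mesp1 cells, 47.8 CPM in T cells without Mesp1 and 18.3 CPM in cells with neither. Sox2, a pluripotency factor, was at 17.1 CPM, 23.7 CPM and 55.2 CPM in the same order of states. The wild type Mesp1 cells were too few for levels and are left out.

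Ccnd2 was high in knockout cells of every state. It was at 109 CPM in Mesp1 cells (106 to 112), 101 CPM in T cells without Mesp1 (98.7 to 103) and 98.3 CPM in cells with neither (93.9 to 103); the last 2 overlap in their intervals. In wild type it was at 42.7 CPM in T cells without Mesp1 (39.3 to 46.3) and 34.0 CPM in cells with neither (33.2 to 34.9). Among cells with neither marker the ratio of knockout to wild type was 2.89 (2.74 to 3.04), and among T cells without Mesp1 it was 2.36 (2.17 to 2.57). The cells with neither marker were not alike in the libraries: their streak and mesoderm markers summed to 173 CPM in knockout and 64.6 CPM in wild type cells, their pluripotency markers to 2141 CPM and 1446 CPM, and before thinning 32.5% and 4.33% of them had a T UMI. Nor were the T cells without Mesp1, whose streak and mesoderm markers summed to 727 CPM in knockout and 173 CPM in wild type cells. After thinning these T cells held a mean of 5.69 T UMIs in the knockout and 1.19 in wild type. Ccnd2 was the only member called in either comparison, in which 13.3% and 10.3% of all genes were called higher and 1.49% and 2.18% lower. With median-of-ratios scaling 3 members, Ccnb1, Cdk1 and Cdk6, were called lower among cells with neither, as were 7.9% of all genes, with 4.54% higher.

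**Figure D4:**
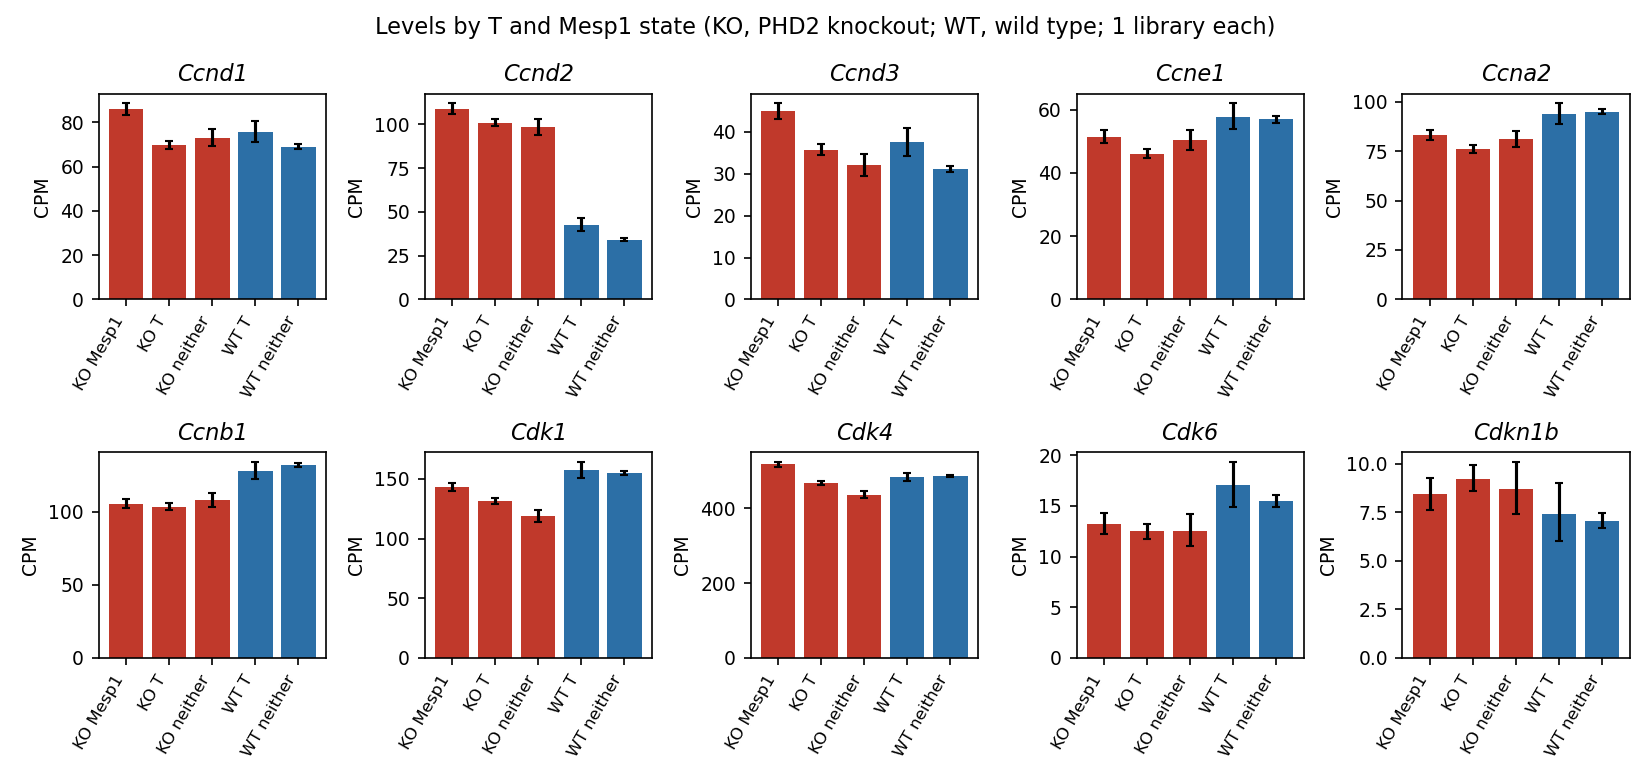
Level (CPM) of each gene in PHD2 knockout (KO, red) cells with Mesp1, with T but no Mesp1, and with neither, and in wild type (WT, blue) cells with T and with neither, 1 library each; error bars are 95% Poisson intervals. Ccnd2 is at 98.3 to 109 CPM in the knockout states and at 34.0 and 42.7 CPM in the wild type states, and no gene differs by 1.5-fold between the knockout states.

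Within the knockout no member passed 1.5-fold between states. Between Mesp1 cells and cells with neither, 3.29% of all genes were called higher and 6.23% lower, and between T cells without Mesp1 and cells with neither 2.13% and 2.32%. The member with the largest ratio of Mesp1 cells to cells with neither was the D-type cyclin Ccnd3. It was at 44.9 CPM in Mesp1 cells, 35.7 CPM in T cells without Mesp1 and 32.0 CPM in cells with neither, a ratio of Mesp1 to neither of 1.40 (1.28 to 1.54). Ccnd3 was called higher when Mesp1 cells needed at least 2 UMIs (log2 ratio 0.67, with 4.7% of all genes called higher and 10.4% lower), or at least 8 UMIs, a limit chosen after the data were seen (0.68, with 5.4% and 12.9%).

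Ccnd1, Cdk1 and Cdk4 were also at higher levels in Mesp1 cells than in cells with neither. Ccnd1 was at 85.9 CPM against 72.9 CPM (1.18, 1.11 to 1.25), Cdk1 at 143 CPM against 119 CPM (1.21, 1.15 to 1.27) and Cdk4 at 518 CPM against 436 CPM (1.19, 1.16 to 1.22). For Ccne1, Ccna2, Ccnb1, Cdk6 and Cdkn1b the interval of the ratio included 1. Mesp1 cells also held more cells with a low chromosome 8 share, 58.3% against 34.1% of cells with neither. Within the low share the ratios were 1.20 for Ccnd3, 1.17 for Ccnd1, 1.16 for Cdk1 and 1.17 for Cdk4, and within the high share 1.47, 1.07, 1.23 and 1.19.

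Ccnd1, Ccnd3, Cdk4 and Cdk1 had the largest ratios between cells with many and with 0 Mesp1 UMIs. Cells with 1 Mesp1 UMI were close to those with 0: Ccnd3 was at 35.4 CPM in cells with 1 UMI, against 35.0 CPM with 0, and Ccnd1 at 73.0 CPM against 70.4 CPM. In the 697 cells with 8 or more UMIs Ccnd1 was at 102 CPM (1.45-fold over 0 UMIs, 1.37 to 1.53), Ccnd3 at 52.0 CPM (1.48, 1.38 to 1.60), Cdk4 at 566 CPM against 461 CPM (1.23) and Cdk1 at 159 CPM against 129 CPM (1.23). Ccne1 (1.21, 1.13 to 1.30), Ccna2 (1.16, 1.10 to 1.23), Ccnd2 (1.11, 1.06 to 1.17) and Ccnb1 (1.06, 1.01 to 1.11) were also higher. For Cdk6 and Cdkn1b the interval included 1. None of the 10 genes was past 1.5-fold, where 4.1% of all genes were called higher and 11.6% lower. Of these 697 cells 73.2% had a low chromosome 8 share, against 40.3% of cells with 0 Mesp1 UMIs. Within the low share the ratio of 8 or more to 0 UMIs was 1.41 for Ccnd1 (1.33 to 1.51) and 1.42 for Ccnd3 (1.29 to 1.55), and none of the 10 genes was called, where 3.75% of all genes were higher and 12.1% lower. Within the high share, with 187 cells of 8 or more UMIs, it was 1.34 for Ccnd1 (1.20 to 1.49). The interval for Ccnd3 was 1.30 to 1.73 there, and Ccnd3 was called, just past the 1.5-fold limit, where 4.24% of all genes were higher and 14% lower. Ccnd2 was at 1.24 within the low share (1.17 to 1.32) and at 0.938 within the high share (0.847 to 1.04). Ccne1 was at 1.33 within the low share (1.22 to 1.45) and at 1.05 within the high share (0.907 to 1.20).

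Over T UMIs the same genes did not move together. In cells with 8 or more T UMIs Ccnd1 was at 67.5 CPM, against 78.0 CPM with 0 (0.865, 0.815 to 0.919), while Ccnd3 was at 41.7 CPM against 34.7 CPM (1.20, 1.10 to 1.31) and Cdk1 at 144 CPM against 125 CPM (1.15, 1.10 to 1.21). Ccnd1 did not fall steadily over the bins, and in cells with 1 T UMI it was above its level with 0. Cdk4 was at 467 CPM with 8 or more T UMIs, against 459 CPM with 0. None of the 10 genes was called, where 4.29% of all genes were higher and 3.74% lower. G2/M-list high cells made up 32.1% of the cells with 8 or more T UMIs and 22.2% of those with 0. The part of that difference in the level of Cdk1 was not tested. Cells with a low chromosome 8 share made up 54.6% of the cells with 8 or more T UMIs and 39.8% of those with 0. The ratios over T UMIs were not split by that share.

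**Figure D5:**
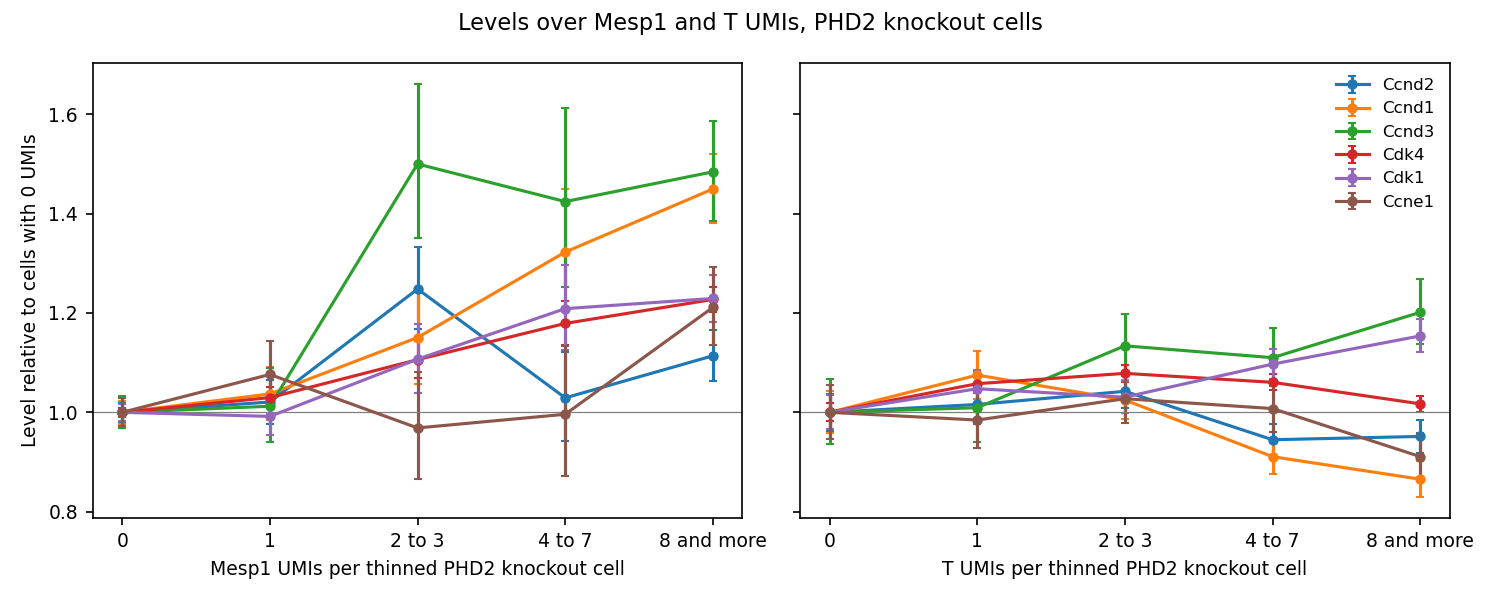
Level of 6 genes in PHD2 knockout cells (1 library) over bins of Mesp1 UMIs (left) and T UMIs (right) per thinned cell, relative to cells with 0 UMIs of that marker; bars are 95% Poisson intervals of each level divided by the level at 0. Ccnd1 and Ccnd3 reach 1.45 and 1.48 at 8 or more Mesp1 UMIs. At 8 or more T UMIs Ccnd1 lies below 1 and Ccnd3 above it, while at 1 T UMI Ccnd1 lies above 1.

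In the other lists of the pathway, counts of calls are set beside the 11.8% of all genes called higher and the 2.35% called lower between the libraries. None of 41 S phase genes measured at 5 CPM passed 1.5-fold (median log2 ratio 0.02), nor did any of 51 G2/M genes (0.08) or of 17 genes of kinase activation and cyclin breakdown (0.04), beside 0.16 over all genes. With median-of-ratios scaling, 2 S phase genes (Rpa2, E2f8), 5 G2/M genes (Hmgb2, Ube2c, Cks1b, Tubb4b, Cdc20) and 2 of activation and breakdown (Cks1b, Cdc20) were called lower, where 6.73% of all genes were. Among cells with neither marker Cks1b was called lower also with scaling to the total, at 443 CPM in knockout and 691 CPM in wild type cells (0.640, 0.626 to 0.654). In the S list, Casp8ap2 was at 66.6 CPM in knockout and 49.4 CPM in wild type cells, Mcm4, a helicase subunit, at 82.6 and 64.2 CPM, Rpa2 at 72.1 and 94.4 CPM, E2f8 at 5.63 and 7.45 CPM and the histone chaperone Nasp at 595 and 600 CPM. In the G2/M list, the kinetochore motor Cenpe was at 68.4 CPM in knockout and 48.6 CPM in wild type cells, the checkpoint kinase Bub1 at 32.5 and 25.3 CPM, Hmgb2 at 2120 and 2977 CPM and Cks1b, a subunit of kinase complexes that also helps in the breakdown of Cdkn1b, at 472 and 685 CPM. Among the genes of activation and breakdown, Fbxw7, whose ligase complex targets cyclin E, was at 26.6 CPM in knockout and 18.5 CPM in wild type cells, Btrc at 13.4 and 10.4 CPM and Cdc20 at 90.3 and 116 CPM.

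Of 5 genes measured outside the 10 that carry the kinase inhibitor name Cdkn, whatever their function, 2 were called higher: Cdkn1a (p21), at 316 CPM in knockout and 158 CPM in wild type cells (ratio interval 1.97 to 2.03), and Cdkn1c (p57), at 51.2 CPM and 30 CPM (1.71, 1.65 to 1.77). Cdkn2a was at 21.7 CPM in knockout and 19.3 CPM in wild type cells Cdkn2d at 19.5 CPM and 16.8 CPM, and Cdkn3 at 17.8 CPM and 22.7 CPM. Cdkn1c was not called among cells with neither marker (1.43) or with median-of-ratios scaling (log2 ratio 0.51), where Cdkn3 was called lower; Cdkn1a was called in both. Cdkn2a (1.52) and Cdkn2b (1.80) were called higher among cells with neither marker. In the lowest G2/M-list bin Cdkn1a was at 354 CPM in knockout and 203 CPM in wild type cells and in the highest at 398 CPM and 168 CPM, so the higher level was not confined to the low end. Within the knockout, Cdkn2a was at 15.7 CPM in Mesp1 cells and 29.3 CPM in cells with neither (0.538, 0.482 to 0.601), Cdkn2b at 2.77 CPM and 6.17 CPM, and Cdkn1c at 65.0 CPM and 42.4 CPM (1.53, 1.42 to 1.66).

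Of 20 other cyclins and kinases 1 was called higher, Ccni, at 40.6 CPM in knockout and 25.8 CPM in wild type cells; Cdk12 was at 63.9 and 43.2 CPM, Cdk7 at 49.5 and 61.2 CPM, Cdk2, the usual partner of cyclin E and cyclin A, at 10.8 and 12.0 CPM, and Ccng1 at 175 and 166 CPM. Of 11 retinoblastoma and E2F genes 1 was called higher, E2f5, at 32.7 CPM in knockout and 20.1 CPM in wild type cells, with E2f6 at 13.5 and 10.3 CPM and E2f4 at 65.2 and 74.8 CPM. Neither Ccni nor E2f5 was called among cells with neither marker, where their ratios were 1.36 and 1.35, or with median-of-ratios scaling, where their log2 ratios were 0.39 and 0.43. In the MYC family, whose factors act on Ccnd2 and Cdk4 in many cell types, Mycl was called higher at 10.7 CPM in knockout and 4.00 CPM in wild type cells and the antagonist Mxd4 at 11.3 and 5.31 CPM. Among cells with neither marker Mycl was at 4.91 CPM in knockout and 3.87 CPM in wild type cells, a ratio of 1.27 that was not called, against 2.68 over whole libraries, while Mxd4 (2.37) and Myc (0.645) were called there too. Myc was called lower, at 7.54 CPM in knockout and 11.7 CPM in wild type cells, while Mycn was at 17.6 and 18.0 CPM and Max at 23.3 and 20.1 CPM.

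Across thinned cells the genes most like each member were looked for by Pearson's r of log counts, taking the smaller r of the libraries; shared depth and the discreteness of low counts bound these values. Cdk1 was most like Ube2c (0.478), which marks mitotic cyclins for breakdown, Top2a (0.377) and Cks2 (0.358). Ccnb1 was most like Ube2c (0.398), Cenpf (0.316) and Arl6ip1 (0.313). Ccna2 reached 0.209 with Ube2c, 0.201 with Hmgb2 and just passed the limit of 0.2 with Cenpa, as Cdk4 did with Mif. No gene reached that limit for the other 6 members, and for Ccnd2 the highest value was 0.149, with Id1.

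Some counts are uncertain. The annotation (GENCODE M21, mm10) lists pseudogenes named for Ccnb1 and Ccnd3, and on the opposite strand Bysl overlaps Ccnd3, Exosc9 overlaps Ccna2 and Tspan31 overlaps Cdk4; the use of strand in counting is not stated in the sources used here. Antisense genes at Ccnd2 were at 0.0507 CPM or less in knockout and 0.0546 CPM or less in wild type cells. Chromosome 6, which holds Ccnd2, gave 3.75% of knockout and 3.72% of wild type UMIs. In the knockout, cells with a high chromosome 11 share had less Cdk4 (387 against 491 CPM) and Ccnd3 (28.4 against 39.4 CPM) than cells with a low share, and they made up 9.93% of the knockout and 0.846% of the wild type cells.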

How the data were processed

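The authors deposited 1 matrix of whole-number UMI counts per library, not normalized; per the file headers the software was Cell Ranger 4.0.0, and the mm10 build, Cell Ranger and Seurat are named in the submitters' processing notes. The knockout matrix held 7713 barcodes and 173470962 UMIs and the wild type matrix 9651 and 226179474. Groups were taken from the sample titles. Cells needed at least 1000 genes and at most 10% mitochondrial UMIs. Scrublet (scanpy 1.11.5) marked 0 cells at its automatic threshold, so the cells of highest score were removed at 0.8% per 1000 barcodes, 456 in the knockout and 712 in wild type; doublets it missed remain. Kept cells had medians of 20999 UMIs in the knockout and 20434 in wild type.

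Levels (CPM) carry exact Poisson intervals, ratios exact conditional binomial intervals and shares exact Clopper-Pearson intervals, all for counting error; log2 ratios add a pseudocount of 1 CPM and understate changes of low genes. The ratio and interval computation was tested on simulated data. Cells under 14000 UMIs have no state, range or bin. Gene names followed a rule: the 10 members, from each list the 2 highest, 2 lowest and the most abundant gene, up to 3 genes of highest likeness at 20 CPM or more, the state genes and Egln1; Mki67, Id1, Etv2, Cdkn2b and the genes of a list named under another comparison or scaling were chosen after their values were seen. The members, lists and ranges were chosen with earlier results of these data known. Alternatives covered filters on cells and doublets, scaling, weighting by cell or by range, chromosome 8 and 11 shares, thinning, state limits, floors and pseudocounts. Promoter windows came from RefSeq (GRCm38.p6) and gene coordinates from GENCODE M21.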

Additional observations from a re-analysis of the deposited data

Results flagged for a closer look

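For 4 contrasts between ranges of cells the libraries went in opposite directions; the difference between the libraries was not tested, and each library is 1 sample. Ccnd1 in G2/M-list high over low cells had a ratio of 0.792 in the knockout and 1.34 in wild type. Cdk1 in S-list high over low cells was at 1.13 in the knockout and 0.873 in wild type. In cells of low over high chromosome 8 share, Ccnd1 was at 1.22 in the knockout and 0.937 in wild type, and Ccnd2 at 0.937 in the knockout and 1.22 in wild type.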

How the results depend on the processing

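No paired analysis was possible because each group is 1 library, and for the same reason no library could be left out. Ccnd2 was the 1 member called higher, and 0 were called lower, knockout over wild type, under every alternative run; its log2 ratio ranged from 1.19 to 1.63. The count of members called higher in Mesp1 cells over cells with neither was 1 with at least 2 UMIs for a state and 1 with at least 8 UMIs (a limit added after the data were seen, as were the 10 bins), against 0; the gene is Ccnd3, and the cause was not tested. Among cells with neither marker, median-of-ratios scaling called 3 members lower, against 0. That scaling shifts the median of all genes by -0.29 among those cells and by -0.23 over whole libraries, and put the knockout over wild type medians at -0.22 for the S list, -0.16 for the G2/M list, -0.068 for other cyclins and kinases and -0.20 for kinase activation and turnover. Counts of list genes called under it, chosen after the data were seen, were 2 lower in the S list, 5 in the G2/M list and 2 in activation and turnover, against 0, with 0 other cyclins and kinases and 0 retinoblastoma and E2F genes higher, against 1 each, 1 other inhibitor higher, against 2, and 1 lower in each of the last 2 lists, against 0. Of 40 member log2 ratios 20 changed sign under at least 1 alternative, none of them called in the main setting. Among cells with neither marker, Ccnb1 and Cdk1 were called lower with median-of-ratios scaling. Under another alternative their log2 ratios were above 0, at 0.088 and 0.020. Of 856 alternative values 678 stayed within the counting interval or count limit and 178 moved. With 1 library per group, differences between cultures or clones cannot be told apart from the genotype.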
